A study of Drosophila melanogaster with 6 samples.

Results

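The RNAs described here are the 79 well-expressed long non-coding RNAs (lncRNAs) of adult male Drosophila melanogaster sampled 12 h after infection with Micrococcus luteus, a Gram-positive bacterium. They were chosen by their symbol and level: the FlyBase symbol starts with lncRNA: and the deposited FPKM (fragments per kilobase of gene, scaled for library size) averaged at least 10 over all 6 libraries, with the dosage compensation RNAs roX1 and roX2 left out. The mean over both groups was the measured value used in the choice. They are 79 of 1797 lncRNA genes and of 17558 genes in all. The libraries fall into 2 groups of 3. The CR46018 overexpression flies are given in the labels as Gal80ts; Tub> CR46018, and the control flies as Gal80ts; Tub-Gal4/P{CaryP}attP40. The tubulin driver is active in most tissues, Gal80ts is a temperature-sensitive repressor of Gal4, and all flies of both groups were infected. The transgene and the rest of the genetic background cannot be told apart in this design. Nothing in the labels tells separate pools of flies from repeat libraries of 1 pool, and the p-values cover the spread between these libraries, which may be technical in part.

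A lncRNA is a transcript longer than a small RNA that is not known to encode a protein. Some act in the nucleus as scaffolds: the transcripts of Hsromega (hsrω), the best studied member here, build the omega speckles, nuclear bodies that hold heterogeneous nuclear ribonucleoproteins (hnRNPs) and that change under heat shock. In the fly immune response, lncRNAs have been studied as regulators of the transcription of antimicrobial peptide genes by the NF-kappaB factors Dif, Dorsal and Relish. Most of the 79 carry a CR number in place of a name, and no role is given for those below.

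Reads were recovered from the FPKM and the exonic length of each gene and came to 15988428 to 17396893 per overexpression library and 15084193 to 16935563 per control library. CR46018, the overexpressed antisense RNA, was nearly uncounted, at 0.264, 0.0902 and 0 FPKM in the overexpression libraries and 0 FPKM in each control library, so these values do not check the genotype. Several tissue marker lists moved with the groups: the 7 fat body markers in the table summed to 981 to 1092 FPKM in overexpression libraries and 1520 to 1563 FPKM in controls, with 4 of 5 tested markers lower. Most of that sum was Tsf1, which averaged 964 FPKM in overexpression flies and 1393 FPKM in controls. The others called lower were apolpp (31.7 and 106 FPKM), bmm and Lsp1gamma, and Fbp2 did not pass. The 9 muscle markers summed to 1706 to 1927 FPKM in overexpression libraries and 2209 to 2844 FPKM in controls, with 6 of 9 tested lower, and 3 of 7 tested hemocyte markers were lower, with sums of 78.3 to 99.5 FPKM in overexpression libraries and 116 to 121 FPKM in controls. No marker of these 3 lists was at 0 in all 6 libraries, and Fbp1, Lsp2 and He averaged under 1 FPKM and were not tested. Testis markers summed to 3667 to 3911 FPKM in overexpression libraries and 3753 to 4130 FPKM in controls, and accessory gland markers to 4365 to 4995 and 5101 to 5913 FPKM, with 0 called by limma in either list. At an unadjusted p under 0.05 these were 3 testis and 4 accessory gland markers, and limma-voom called 1 testis marker higher and 3 accessory gland markers lower. Sums of gut markers ran the other way, at 9664 to 10239 FPKM in overexpression libraries and 7690 to 9227 FPKM in controls. Of 11 gut markers, limma called 1 higher and 1 lower, and limma-voom 4 higher and 1 lower. Eye markers summed to 3196 to 3991 and 3111 to 3184 FPKM, with 0 called by limma and 3 higher in limma-voom. In bulk flies, fewer cells of a type and less RNA per cell cannot be told apart, and the part of these markers in the lncRNA values was not tested.

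The lncRNAs were of modest abundance, and a few of them held most of the signal. Of the 79, 46 averaged 10 to 20 FPKM, 22 averaged 20 to 100 FPKM, and 11 averaged at least 100 FPKM and held 54.9% of the summed level. The median lncRNA had a mean of 17.3 FPKM, and the 79 summed to 3251, 3450 and 3365 FPKM in the overexpression libraries and 3195, 3174 and 3342 FPKM in the controls. They were mostly short, with a median exonic length of 567 bp, and 45 had a single exon block. For the 77 lncRNAs whose FPKM gave whole reads over the annotated length, 29 to 31472 reads stood behind a value, with 4 of them under 50 reads in a library. Over an inferred length, noe had 793 to 1115 reads and CR44546 21 to 54 reads. Replicates were close for most of them: the median coefficient of variation was 7.95% in overexpression flies and 8.92% in controls, and the highest were 54.6% for CR40469 in overexpression flies and 34.1% for CR32368 in controls.

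**Figure D1:**
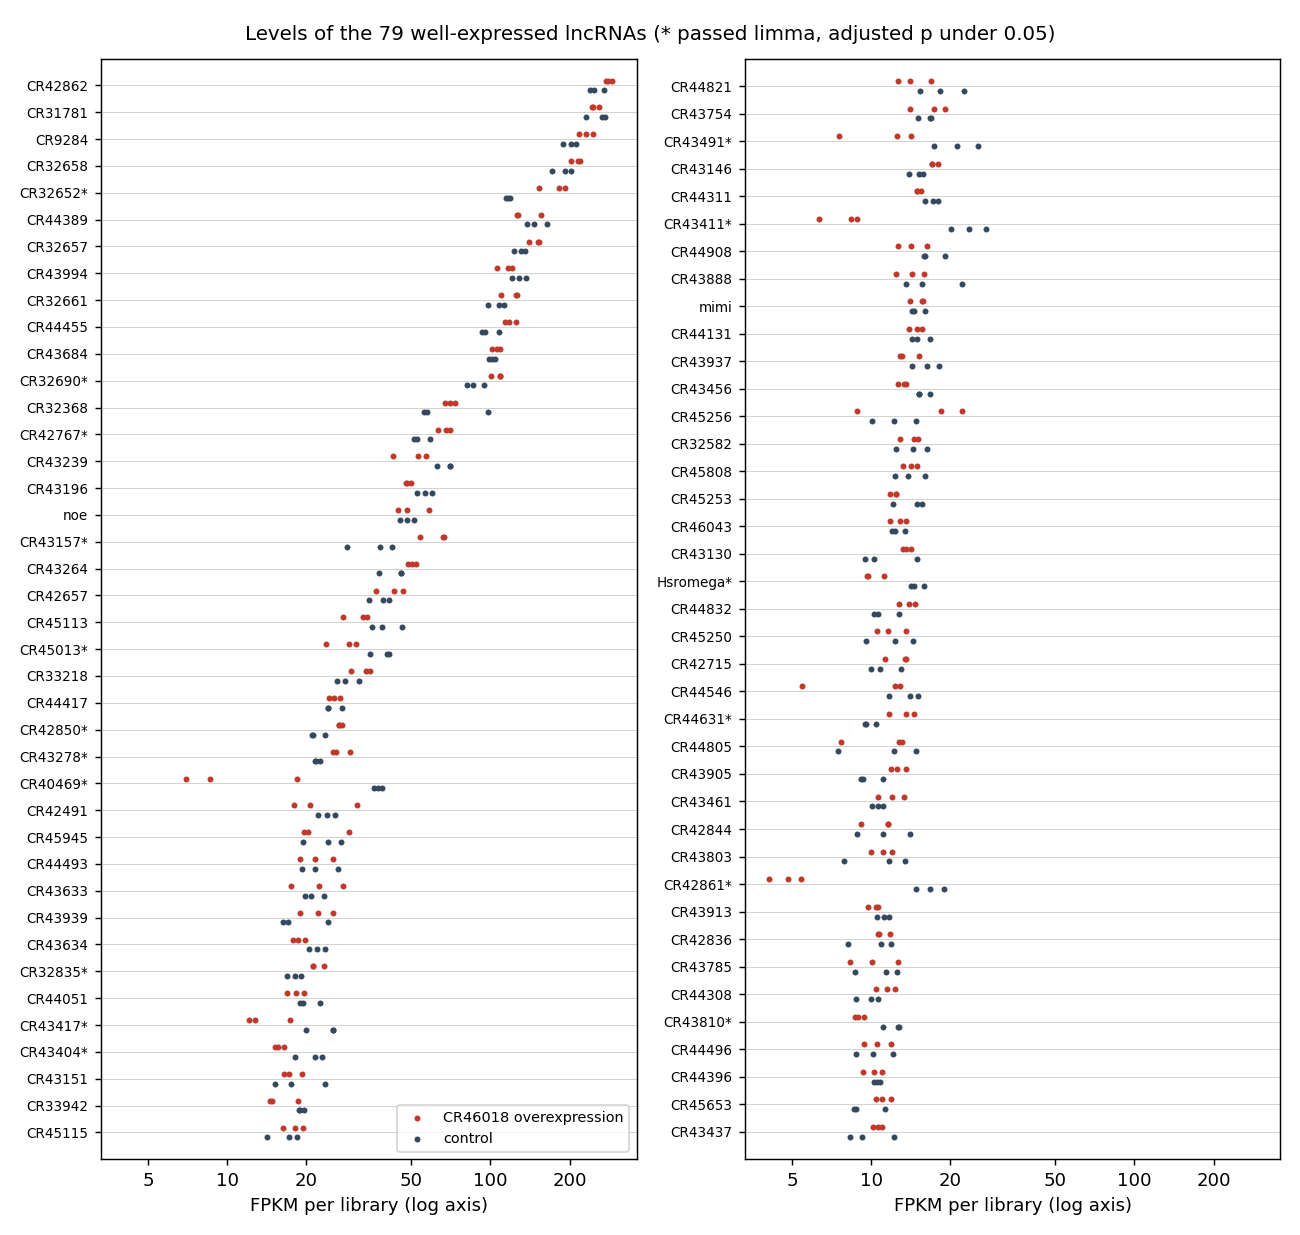
FPKM (log axis) of each of the 79 lncRNAs in each of the 6 libraries, ordered by the mean over all libraries, with the CR46018 overexpression and control libraries in 2 colours. The levels run from CR42862 at a mean of 267 FPKM to CR43437 at 10.3 FPKM, and for most lncRNAs the points of both groups lie close together.

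The most abundant lncRNA was CR42862, on chromosome 3L from 224106 to 230964 (plus strand, dm6), whose exons share 246 bp with the protein-coding gene CG33229 on the same strand. It had 279, 275 and 290.1 FPKM in the overexpression libraries, against 238, 269 and 248 FPKM in the controls. All overexpression values lay above all control values, and the difference did not pass the threshold (log2 fold change 0.16 ± 0.06 SE, limma adjusted p = 0.142). CG33229 itself averaged 24.3 ± 0.394 FPKM in overexpression flies and 28.2 ± 2.60 FPKM in controls (SD, n = 3 each). CR31781, the next in level, averaged 249 ± 7.80 and 255 ± 22.2 FPKM in overexpression and control flies (n = 3 each), with overlapping groups and a log2 fold change of -0.03 whose sign changed with the scaling (0.061 after rescaling to a common FPKM total, 0.078 after quantile normalization). CR9284 averaged 231 ± 14.9 FPKM in overexpression flies and 201 ± 11.1 FPKM in controls (log2 fold change 0.19, limma adjusted p = 0.118). Over all 6 libraries the values of CR42862 and CR31781 overlapped, as did those of CR31781 and CR9284. By group, all overexpression values of CR42862 lay above those of CR31781. All control values of CR31781 lay above those of CR9284.

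Of the other abundant lncRNAs, CR32658 and CR32657 are a pair on the X chromosome, 3568 bp apart on the same strand inside an intron of Ten-a, a gene for a teneurin cell adhesion protein. CR32658 had 202.4, 214 and 218 FPKM in overexpression libraries and 201.6, 171 and 191 FPKM in controls. CR32657 had 139.5, 152 and 153 FPKM in overexpression libraries and 131, 123 and 135 FPKM in controls. Both ran above control in all 3 overexpression libraries, with log2 fold changes of 0.17 and 0.19 that did not pass (limma adjusted p = 0.182 and 0.089), while Ten-a was at 2.64 ± 0.0839 FPKM in overexpression flies and 2.73 ± 0.210 FPKM in controls. CR44389 (136 ± 16.5 and 149 ± 13.0 FPKM), CR43994 (114 ± 7.63 and 128 ± 7.86 FPKM), CR32661 (120.2 ± 9.06 and 106 ± 7.58 FPKM) and CR44455 (119 ± 5.70 and 98.8 ± 7.79 FPKM, overexpression then control) did not pass either. CR44455 came nearest, with a log2 fold change of 0.26 ± 0.07 (limma adjusted p = 0.0534), and it passed in 6 of 15 alternatives, limma-voom among them (0.0243). CR42862, CR9284 and CR32657 passed after rescaling to a common FPKM total (limma adjusted p = 0.035, 0.0425 and 0.0343) and after quantile normalization (0.0225, 0.0425 and 0.0325).

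Between the groups, 17 of the 79 lncRNAs passed an adjusted p of 0.05 in limma on log2(FPKM + 1), 8 higher (10.1%) and 9 lower (11.4%) in overexpression flies. Over all 12251 tested genes the shares were 2.45% higher (300 genes) and 6.31% lower (773 genes), and over the 6704 genes with a mean of at least 10 FPKM they were 3.1% and 9.1%. The share of these lncRNAs called lower was thus near that of genes of like abundance, and the share called higher was above it, a difference that was not tested. After rescaling all libraries to a common FPKM total, which moved the median gene by 0.08 on the log2 scale, 15 lncRNAs were higher and 6 lower, against 826 higher and 484 lower genes. The count of higher lncRNAs changed when 1 library was left out. It was 4, 2 and 2 without overexpression replicate 1, 2 or 3, and 3, 3 and 10 without control replicate 1, 2 or 3. Over all tested genes, 216, 231 and 137 were higher in the former fits, and 162, 155 and 283 in the latter. The count of lower lncRNAs was 7, 8 and 5 without overexpression replicate 1, 2 or 3, and 6, 6 and 7 without control replicate 1, 2 or 3. Over all tested genes, 574, 581 and 427 were lower in the former fits, and 458, 439 and 629 in the latter.

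The lncRNAs lay on both sides of 0. Their median log2 fold change was 0.02, against -0.00 for all tested genes, and their median absolute log2 fold change was 0.195, against 0.102 for all tested genes and 0.0979 for genes of at least 10 FPKM. Of the 79, 54 (68.4%) lay within 0.25 of 0, against 82.2% of all tested genes and 83.0% of genes of at least 10 FPKM. The other 608 tested lncRNAs, under 10 FPKM, were like the 79 here, with a median absolute value of 0.175 and 64.3% within 0.25. The median SE was 0.0941 for the 79, 0.0677 for genes of at least 10 FPKM and 0.164 for the other lncRNAs. An absolute value of 1 was reached by 3 of the 79, CR40469, CR42861 and CR43411. The last 2 of these met the bound of 10 FPKM through the controls alone. In 17 lncRNAs (21.5%) all overexpression values lay above all control values and in 16 (20.3%) they lay below, against 12.2% and 16.2% of all tested genes and 13.7% and 20.5% of genes of at least 10 FPKM. The choice by the mean over both groups bears on a few: CR42861, CR43411 and CR43810 were under 10 FPKM in the overexpression mean alone, and all 3 were called lower. In the control mean alone 5 were under 10 FPKM, and 1 of them, CR44631, was called higher. Such lncRNAs had to differ to be chosen, so their direction is a description. Of the 71 at 10 FPKM or more in both group means, 7 were called higher and 6 lower.

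**Figure D2:**
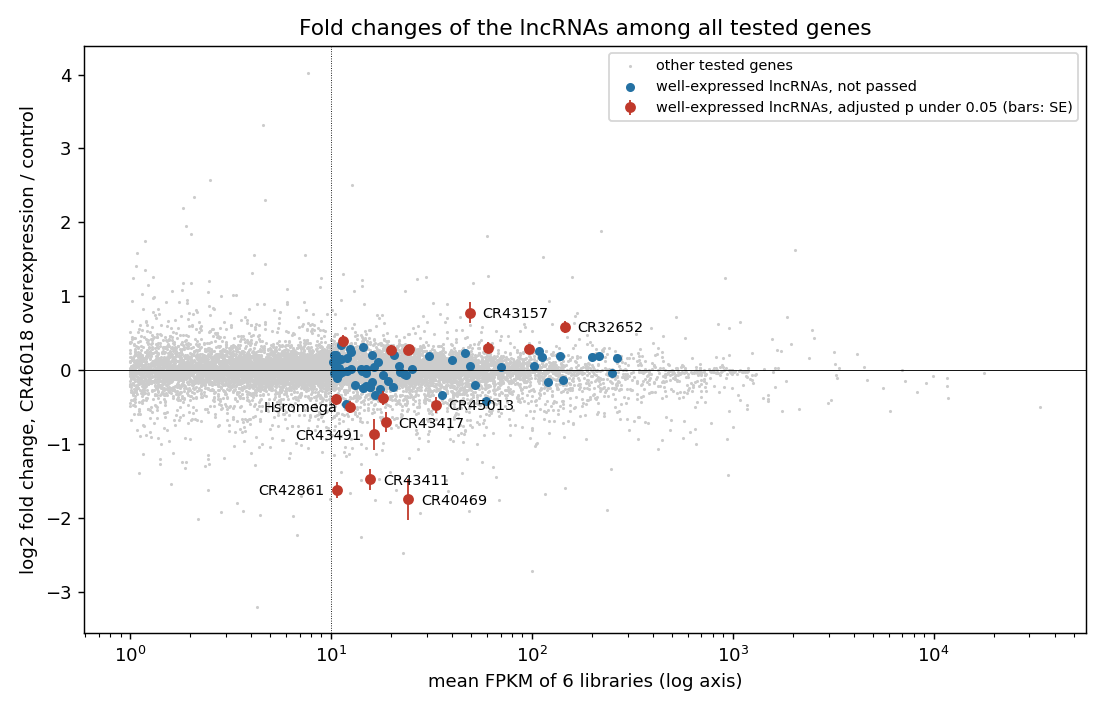
Log2 fold change (CR46018 overexpression over control) against mean FPKM of the 6 libraries (log axis) for the 79 lncRNAs in colour and the other tested genes in grey; red points passed an adjusted p of 0.05, with bars for the SE. CR40469, CR42861 and CR43411 lie between -1.75 and -1.48, below the rest, and CR43157 and CR32652 are the highest at 0.77 and 0.58.

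CR40469, CR42861 and CR43411 had the largest differences and were lower in overexpression flies. CR42861 and CR43411, with overexpression means of 4.77 and 7.84 FPKM, are in the set through their control level, and CR40469 averaged 11.3 ± 6.18 FPKM in overexpression flies and 37.4 ± 1.42 FPKM in controls (SD, n = 3 each). CR40469 lies near the tip of the X chromosome, from 122493 to 122706 on the plus strand, as a single exon of 214 bp. Its level was 18.4, 6.99 and 8.57 FPKM in overexpression libraries, against 38.9, 37.4 and 36.0 FPKM in controls. The controls were close together and the overexpression libraries were not: replicate 1 held more than the other two, and still less than any control. The log2 fold change was -1.75 ± 0.28 (limma adjusted p = 0.00845), and between 30 and 160 reads stood behind each value. The nearest protein-coding gene, CG17636, 1663 bp away on the other strand, averaged 5.97 ± 0.964 FPKM in overexpression flies and 5.41 ± 0.280 FPKM in controls and did not pass (limma adjusted p = 0.586).

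CR42861 is a single exon of 549 bp on the X chromosome, from 13744928 to 13745476 on the plus strand, and starts or ends 100 bp from Pdcd4, the fly relative of a translation inhibitor, on the opposite strand. It had 5.40, 4.82 and 4.10 FPKM in overexpression libraries, against 18.8, 14.8 and 16.7 FPKM in controls. The groups did not overlap, and the overexpression mean was 0.285 times the control mean (log2 fold change -1.62 ± 0.11, limma adjusted p = 0.000418). Pdcd4 did not pass, at 35.8 ± 1.17 FPKM in overexpression flies and 33.0 ± 1.46 FPKM in controls (log2 fold change 0.11, limma adjusted p = 0.271). CR43411, on 2L from 14613258 to 14613621, is a single exon of 364 bp in an intron of osp, on the opposite strand, in the neighbourhood of the alcohol dehydrogenase locus. Its values were 8.81, 8.36 and 6.34 FPKM in overexpression libraries and 27.3, 20.1 and 23.5 FPKM in controls. Here too no value of one group reached the other, and the log2 fold change was -1.48 ± 0.14 (limma adjusted p = 0.00109). The host gene osp averaged 7.05 ± 0.499 FPKM in overexpression flies and 8.19 ± 0.212 FPKM in controls and did not pass (limma adjusted p = 0.147).

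Hsromega, the nuclear speckle RNA, was the most sequenced lncRNA among those that fell, with 4007 to 6022 reads per library over an annotated span of 21710 bp (3R from 21296127 to 21317836, plus strand). It had 11.2, 9.73 and 9.67 FPKM in overexpression libraries, against 14.2, 14.5 and 15.8 FPKM in controls. The groups did not overlap, and the overexpression mean was 0.688 times the control mean (log2 fold change -0.50 ± 0.08, limma adjusted p = 0.00729). Its transcripts differ greatly in length, and a gene-level FPKM over the whole span does not say which of them changed. Of the 9 genes listed for proteins of the omega speckles (hnRNPs, chromatin and RNA-binding proteins), 8 were tested and 0 passed in limma in either direction, with a median log2 fold change of 0.01; 2 had an unadjusted p under 0.05, and limma-voom on the recovered reads called 0. Hrb98DE, an hnRNP of the speckles, averaged 99.5 ± 2.41 FPKM in overexpression flies and 88.9 ± 2.58 FPKM in controls (log2 fold change 0.16, limma adjusted p = 0.0856). Hrb87F, an hnRNP much studied with Hsromega, had a log2 fold change of 0.04 ± 0.05 (limma adjusted p = 0.676). The nearest protein-coding gene, aus, 463 bp away, averaged 8.27 ± 0.469 FPKM in overexpression flies and 8.60 ± 0.186 FPKM in controls and did not pass (limma adjusted p = 0.701).

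The other 5 lncRNAs called lower showed smaller differences. CR43491 (X, 17378376 to 17379004) had 12.5, 14.2 and 7.58 FPKM in overexpression libraries and 21.2, 17.4 and 25.4 FPKM in controls, with wide spread in both groups (log2 fold change -0.87 ± 0.21, limma adjusted p = 0.044). CR43417 (2R, 16817519 to 16819240) had 12.8, 17.3 and 12.2 FPKM in overexpression libraries and 25.2, 25.1 and 19.98 FPKM in controls (-0.70 ± 0.14, limma adjusted p = 0.0197). Its exons share 59 bp with CG5550 on the opposite strand, which averaged 6.73 ± 0.699 FPKM in overexpression flies and 10.9 ± 3.56 FPKM in controls and did not pass (limma adjusted p = 0.153). CR45013 (2L, 11835320 to 11835903) had 23.7, 30.8 and 29.1 FPKM in overexpression libraries and 34.9, 41.3 and 40.5 FPKM in controls (-0.47 ± 0.10, limma adjusted p = 0.0303). It shares 332 bp with exons of Pde1c, a phosphodiesterase gene, on the opposite strand, and Pde1c was at 6.24 ± 0.324 and 6.30 ± 0.544 FPKM in overexpression and control flies. Whether the authors counted by strand was not given in the sources used here. Reads from the shared stretches therefore cannot be told apart from those of the opposite-strand partners. These stretches are 59 of 1380 exonic bp in CR43417 and 332 of 584 in CR45013.

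CR43810 (2R, 13783995 to 13784496, in the span of the cuticle protein gene Cpr50Ca on the same strand) averaged 8.98 ± 0.343 FPKM in overexpression flies and 12.2 ± 0.934 FPKM in controls (log2 fold change -0.40 ± 0.07, limma adjusted p = 0.0144). CR43404 (2L, 9364297 to 9364991) averaged 15.7 ± 0.599 FPKM in overexpression flies and 20.9 ± 2.54 FPKM in controls (-0.38 ± 0.09, limma adjusted p = 0.0372). In both, every overexpression library was below every control library. Leaving out 1 library ended some of these calls. CR43810 lost its call without control replicate 1 (limma adjusted p = 0.056), and also in limma-voom on the recovered reads (0.0959). CR43404 lost it without overexpression replicate 1, 2 or 3 (0.0909, 0.0662 and 0.122) and without control replicate 2 or 3 (0.113 and 0.0869). For CR43491 the losses came without overexpression replicate 1 or 3 (0.0751 and 0.065) and without control replicate 1, 2 or 3 (0.104, 0.0616 and 0.108), for CR43417 without overexpression replicate 1 or 3 (0.0643 and 0.0678) and control replicate 1 or 2 (0.0631 and 0.0723), and for CR45013 without overexpression replicate 1 or 3 (0.0557 and 0.0689) and control replicate 2 or 3 (0.1001 and 0.0786). Testing without a filter on low values ended the calls of CR43404, CR43491 and CR45013 (0.0624, 0.0815 and 0.0554), and so did rescaling to a common FPKM total (0.0887, 0.0618 and 0.0722).

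Among the 8 lncRNAs called higher in overexpression flies, CR43157 and CR32652 showed the largest differences, and both lie on the X chromosome. CR43157 (11919125 to 11919657, minus strand) had 54.2, 66.6 and 66.0 FPKM in overexpression libraries, against 28.6, 37.9 and 42.4 FPKM in controls. All overexpression values were above all control values, and the overexpression mean was 1.71 times the control mean (log2 fold change 0.77 ± 0.14, limma adjusted p = 0.0147; 0.057 without overexpression replicate 3). CR32652 (12411018 to 12412181, minus strand, 5 exon blocks) had 153, 182 and 192 FPKM in overexpression libraries, against 116, 114.6 and 119 FPKM in controls. The control values lay within a few FPKM of each other, below all overexpression values, and the difference passed with a log2 fold change of 0.58 ± 0.08 (limma adjusted p = 0.00525). CG2574, the nearest protein-coding gene to CR32652 at 1192 bp on the other strand, averaged 33.2 ± 1.69 FPKM in overexpression flies and 33.3 ± 2.40 FPKM in controls.

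CR43157 was the 1 lncRNA of the 17 with a called protein-coding neighbour. Sclp, 346 bp away on the same strand, averaged 21.1 ± 0.655 FPKM in overexpression flies and 15.7 ± 1.24 FPKM in controls (log2 fold change 0.41 ± 0.07, limma adjusted p = 0.0107). On its other side, 446 bp away and on the same strand, lies CR32661, which had 109.8, 126 and 125 FPKM in overexpression libraries and 113, 97.9 and 108 FPKM in controls. Unlike CR43157, CR32661 had overlapping groups and a log2 fold change of 0.18 ± 0.08 (limma adjusted p = 0.206).

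The other 6 higher calls were small, with log2 fold changes of 0.27 to 0.39. CR44631 (2R, 20058095 to 20058795) had 13.5, 14.6 and 11.7 FPKM in overexpression libraries and 9.49, 9.54 and 10.4 FPKM in controls (0.39 ± 0.09, limma adjusted p = 0.0299). CR42767 (X, 9557539 to 9558466) averaged 67.1 ± 3.59 FPKM in overexpression flies and 54.2 ± 4.11 FPKM in controls (0.30 ± 0.07, 0.0333). Its neighbour Cubn, which encodes the endocytic receptor cubilin, 198 bp away on the same strand, had the opposite sign without passing, at 4.47 ± 1.49 FPKM in overexpression flies and 7.06 ± 0.751 FPKM in controls (limma adjusted p = 0.0815). CR42850 (2L, 5379095 to 5381074) averaged 26.9 ± 0.315 and 21.9 ± 1.36 FPKM in overexpression and control flies (0.28 ± 0.06, limma adjusted p = 0.0249). CR32690 (X, 10204400 to 10205289), which starts or ends 2 bp from Ypel on the other strand, averaged 106 ± 4.88 FPKM in overexpression flies and 87.1 ± 6.84 FPKM in controls (0.28 ± 0.07, limma adjusted p = 0.0419). CR43278 (X, 7488953 to 7493276) averaged 26.8 ± 2.08 and 21.97 ± 0.561 FPKM (0.27 ± 0.07, limma adjusted p = 0.0419), and CR32835 (2R, 22951148 to 22953800) 21.9 ± 1.28 and 17.98 ± 1.09 FPKM (0.27 ± 0.07, limma adjusted p = 0.0469), in overexpression and control flies. The groups of all 6 were close and yet did not overlap.

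None of these 6 small rises held in every fit that left out 1 library. CR44631 lost its call without overexpression replicate 1 or 2 (limma adjusted p = 0.0828 and 0.0777) and without control replicate 1 or 2 (0.0929 and 0.093). CR42767 lost it without overexpression replicate 2 or 3 (0.0943 and 0.110) and control replicate 1 or 2 (0.105 and 0.102). For CR42850 it was lost without overexpression replicate 1, 2 or 3 (0.0619, 0.0684 and 0.0812) and control replicate 1 or 2 (0.0915 and 0.0806). CR32690 missed the threshold without overexpression replicate 1, 2 or 3 (0.053, 0.110 and 0.138) and control replicate 1 or 2 (0.123 and 0.117), and CR32835 likewise (0.0767, 0.122 and 0.0995, and 0.121 and 0.132). CR43278 missed it without overexpression replicate 2 or 3 (0.0912 and 0.0963) and control replicate 1, 2 or 3 (0.126, 0.113 and 0.0667). Without a filter on low values CR44631, CR32690, CR43278 and CR32835 also missed it (0.0548, 0.0605, 0.0598 and 0.0675). Across all 15 alternatives tried, CR40469, CR42861, CR43411, Hsromega and CR32652 passed every time.

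**Figure D3:**
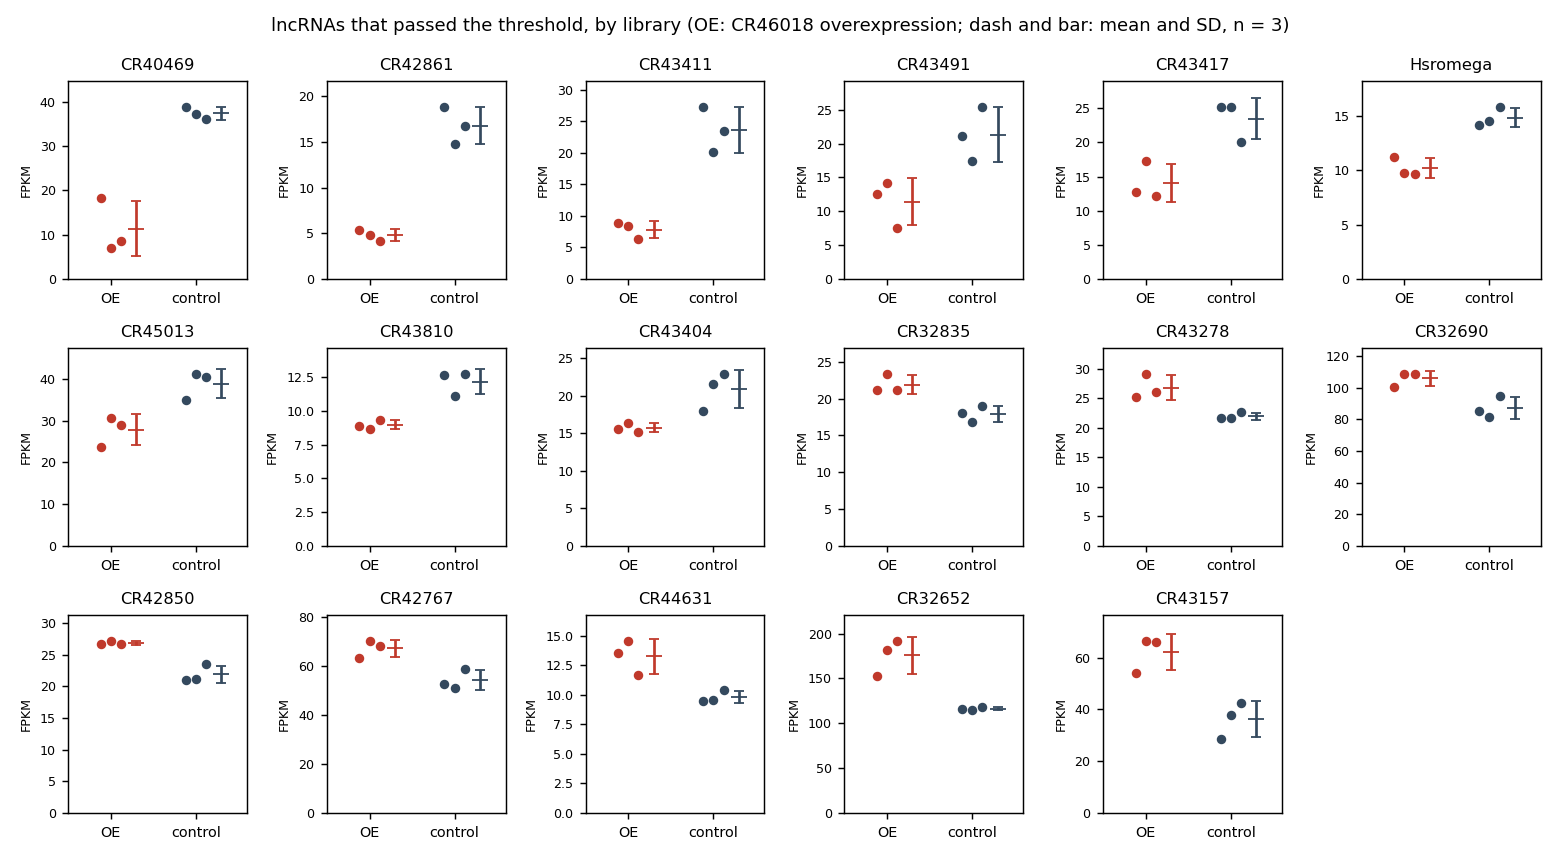
FPKM per library (points) with the mean and SD (bars) of the lncRNAs that passed an adjusted p of 0.05, CR46018 overexpression left of control in each panel. In each of the 17 the 3 overexpression points lie all above or all below the 3 control points.

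**Figure D4:**
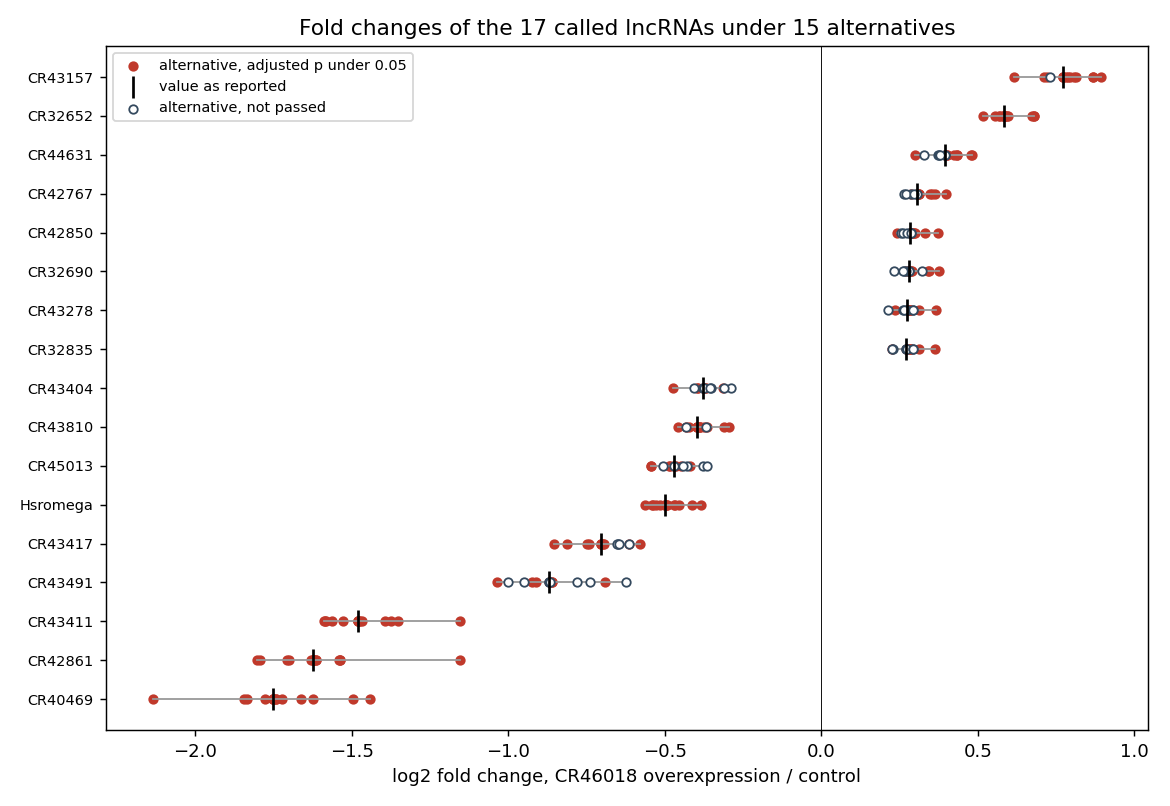
Log2 fold change of the 17 called lncRNAs as reported (black ticks) and in the 15 alternatives (points), filled where the adjusted p was under 0.05; grey lines join the alternatives of 1 lncRNA. CR40469, CR42861, CR43411, Hsromega and CR32652 are filled throughout, and the small rises near 0.3 are open in several fits.

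Another 16 lncRNAs had non-overlapping groups without passing, 9 with overexpression above control and 7 below. CR43239 came closest to the threshold, with 56.9, 53.1 and 42.5 FPKM in overexpression libraries and 70.1, 70.4 and 62.6 FPKM in controls. Its log2 fold change was -0.42 ± 0.11 (limma adjusted p = 0.0501), and it passed in 5 of the alternatives, limma-voom among them (0.00883). CR43905 had 11.9, 13.6 and 12.6 FPKM in overexpression libraries and 9.35, 9.14 and 11.1 FPKM in controls (0.34 ± 0.09, limma adjusted p = 0.0527). These 2 were chosen after their values were seen. Of the 79, 37 (46.8%) had an unadjusted p under 0.05, against 23.5% of all tested genes and 29.7% of genes of at least 10 FPKM, a difference that was not tested.

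Some lncRNAs varied widely between replicates. CR32368 had 70.2, 67.3 and 73.4 FPKM in overexpression libraries and 55.8, 98.1 and 57.4 FPKM in controls, so that control replicate 2 alone stood above the overexpression values. Without that library its log2 fold change was 0.31 (limma adjusted p = 0.0365), against 0.05 with it (0.921). CR45256 had 8.82, 22.2 and 18.4 FPKM in overexpression libraries and 14.8, 10.04 and 12.2 FPKM in controls, and CR44546 had 5.46, 12.3 and 12.9 FPKM and 11.7, 15.1 and 14.0 FPKM. In both, overexpression replicate 1 was the lowest of the 6 libraries, and the log2 fold changes of 0.31 ± 0.29 and -0.46 ± 0.27 did not pass (limma adjusted p = 0.579 and 0.364). These 3 were also picked for their values.

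Beside Hsromega, the lncRNAs with a given name were noe and mimi, and in both the groups overlapped. The values of noe, which lies in an intron of the transporter gene blot, were 48.3, 44.6 and 58.3 FPKM in overexpression libraries and 51.4, 48.2 and 45.2 FPKM in controls (log2 fold change 0.05 ± 0.10, limma adjusted p = 0.800). For mimi, whose exons hold the microRNA gene mir-9381, they were 15.5, 14.1 and 15.8 FPKM in overexpression libraries and 14.5, 16.01 and 14.3 FPKM in controls (0.02 ± 0.07, limma adjusted p = 0.912). The sign of both depended on single libraries. Over all 23 named lncRNAs of the table, roX1 and roX2 included, 9 were tested and 1, Hsromega, passed. roX1 averaged 77.2 ± 2.80 FPKM in overexpression flies and 76.4 ± 4.16 FPKM in controls.

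Of the lncRNAs studied in fly immunity, CR33942 belongs to the set. CR33942, reported to aid the transcription of antimicrobial peptide genes, had 18.7, 14.8 and 14.5 FPKM in overexpression libraries and 18.7, 19.5 and 19.0 FPKM in controls. Overexpression replicate 1 lay with the controls and the other overexpression libraries below them, and the log2 fold change of -0.25 ± 0.09 did not pass (limma adjusted p = 0.152). Without overexpression replicate 1 it was -0.36 (limma adjusted p = 0.0193). IBIN, an infection-induced RNA whose present symbol no longer starts with lncRNA: and which is therefore not among the 79, was far more abundant per length. It had 999, 1050 and 920 FPKM in overexpression libraries, against 1459, 1383 and 1287 FPKM in controls, and fell (log2 fold change -0.48 ± 0.07, limma adjusted p = 0.00729).

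The 79 lie on all large chromosome arms, and X-linked ones make up 8 of the 17 calls. On the X chromosome, 5 of 18 lncRNAs were higher (27.8%) and 3 lower (16.7%), against 4.37% higher and 10.4% lower of the X-linked genes with a mean of at least 10 FPKM. Of these 18, 13 had a log2 fold change above 0, and their median was 0.18, against -0.01 for the X-linked genes of that level. On 2L, 1 of 17 was higher and 3 were lower, against 2.85% and 9.35% of the genes of that level. On 2R, 2 of 14 were higher and 2 lower, against 3.28% and 8.78%, and on 3R 0 of 10 were higher and 1, Hsromega, lower, against 2.61% and 8.94%. On 3L, 0 of 19 passed in limma in either direction, with 4 at an unadjusted p under 0.05, and limma-voom called 0 of them, beside 2.85% and 8.22% of the genes of that level on 3L. The difference between the arms was not tested.

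**Figure D5:**
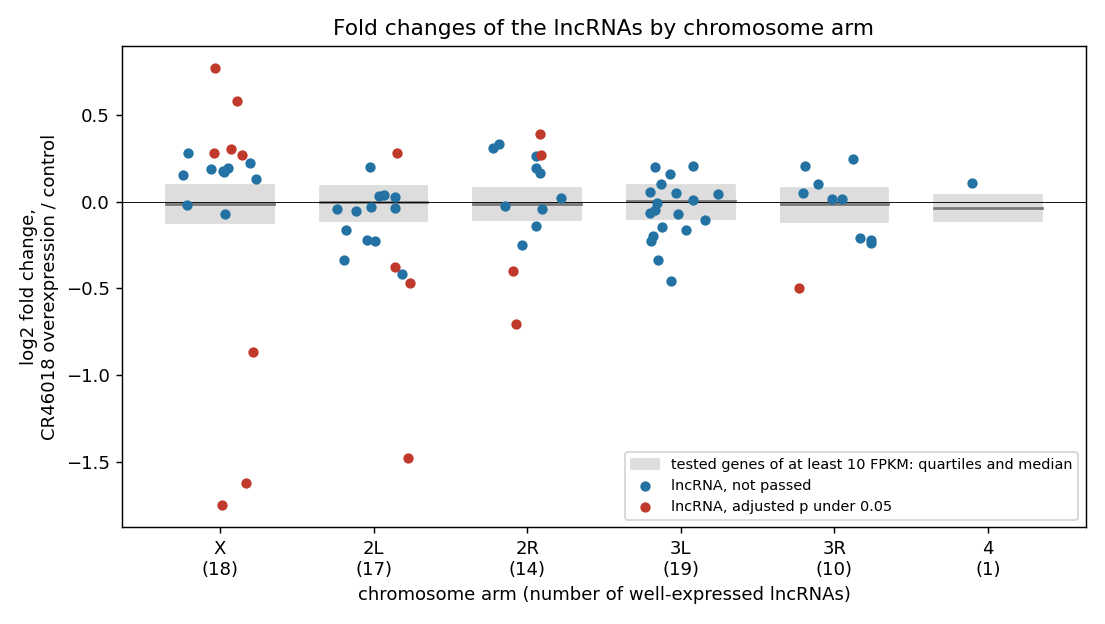
Log2 fold change (CR46018 overexpression over control) of each of the 79 lncRNAs by chromosome arm, with red points for those past an adjusted p of 0.05; grey boxes and lines are the quartiles and median of all tested genes of at least 10 FPKM on that arm. The X chromosome holds 5 of the 8 higher calls, its 18 lncRNAs have a median of 0.18, and 3L holds no call.

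By position, 26 of the 79 overlapped the span of a protein-coding gene without touching its exons, 15 on the same strand and 11 on the opposite one. Another 4 shared exonic sequence with such a gene, 23 lay within 1 kb of one and 26 farther away. Of those overlapping spans without touching exons 0 were higher and 2 lower, CR43810 on the same strand (6.67%) and CR43411 on the opposite one (9.09%). Of the other tested lncRNAs in these positions 6.15% and 2.78% were lower. Of the 26 farther away 5 (19.2%) were higher and 3 (11.5%) lower, against 2.07% and 1.24% of the other tested lncRNAs at that distance. Of the 23 within 1 kb, 3 (13%) were higher and 2 (8.7%) lower, against 2.45% and 3.68% of the other lncRNAs there. In the 4 with shared exonic sequence 0 were higher and 2 lower. Over all genes of at least 10 FPKM the shares were 3.1% higher and 9.1% lower. The other lncRNAs were under 10 FPKM, and at the greater distance their median SE was 0.161, against 0.0998 for the 26. The difference between positions was not tested. Of the 29 protein-coding genes whose span overlaps a lncRNA of the set, 26 were tested and 0 passed in limma. Over all tested genes 2.45% were higher and 6.31% lower, and the difference was not tested. Of the 26, 4 had an unadjusted p under 0.05, against 23.5% of all tested genes, and limma-voom called 0. Of the 65 lncRNAs whose nearest protein-coding gene outside them was tested, 2 (3.08%) had one that was higher and 6 (9.23%) one that was lower. The shares were 2.45% and 6.31% of all tested genes, and 3.1% and 9.1% of genes of at least 10 FPKM. The nearest genes had to reach a mean of 1 FPKM only, and some were nearest to more than 1 lncRNA. CG42846, 6 bp from CR42862 on the opposite strand, averaged 55.3 ± 4.21 FPKM in overexpression flies and 75.3 ± 5.16 FPKM in controls (log2 fold change -0.44, limma adjusted p = 0.00967), while CR42862 itself had a positive one. CG43993, 4403 bp from CR43994, averaged 13.9 ± 2.53 FPKM in overexpression flies and 19.3 ± 0.151 FPKM in controls (limma adjusted p = 0.0381). The log2 fold change of CR43994 was also negative (-0.17) and did not pass (limma adjusted p = 0.198).

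Pairs of well-expressed lncRNAs within 10 kb of each other did not share calls. Besides the X-linked pairs above, CR43633 and CR43634 on 3R, 426 bp apart on opposite strands, had log2 fold changes of 0.05 and -0.22, and CR43146 and CR43913 on 3L, 252 bp apart, had 0.20 and -0.11. CR45013, which fell, lies 3394 bp from CR43937 on 2L, at -0.22 and not passing (limma adjusted p = 0.212).

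One more list belongs to the machinery of non-coding RNAs. It holds 8 genes for proteins of small nucleolar ribonucleoproteins, the particles of RNA and protein that modify RNA in the nucleolus. Of these genes 7 were tested and 0 passed in limma, with a median log2 fold change of 0.17. An unadjusted p under 0.05 was reached by 2, and limma-voom called 0. Fib, the methyltransferase fibrillarin, averaged 36.6 ± 3.29 FPKM in overexpression flies and 31.2 ± 4.53 FPKM in controls, and Gar1 21.8 ± 0.462 and 18.4 ± 1.49 FPKM (limma adjusted p = 0.259 and 0.0691).

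Of the other 608 tested lncRNAs, at 1 to under 10 FPKM, 12 (1.97%) were higher and 17 (2.8%) lower, and their groups did not overlap in 7.73% with overexpression above and 9.7% with overexpression below. Another 1108 were under 1 FPKM and were not tested. The difference between these lncRNAs and the 79 was not tested either. Just inside the bound lay CR44396, CR45653 and CR43437, at means of 10.4, 10.3 and 10.3 FPKM, and just outside it CR44081, CR44298 and CR43792, at 9.91, 9.68 and 9.41 FPKM. None of these 6 passed in limma, and their log2 fold changes were between -0.33 (CR43792) and 0.24 (CR44298).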

How the data were processed

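Polyadenylated RNA of 3 overexpression and 3 control libraries was sequenced in paired ends, per the labels' protocols. The authors aligned reads with HISAT2 2.0.5 and counted them with featureCounts 1.5.0-p3, and the build was dm6, per the submitters' processing notes. The deposited values are FPKM per gene and library. Not given in the sources used here were the FPKM formula, annotation release, strand setting and handling of multiply aligned reads. FPKM times the exonic length (Ensembl annotation of the same assembly) gave whole reads, within 0.01, for 97.6% of genes, and 77 of the 79 lncRNAs. For noe and CR44546 the length behind the FPKM differs from the annotated one. Symbols were found for 17252 gene identifiers and not for 306, so lncRNAs among the latter would be missed.

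The limma package (3.58.1, R 4.3.3; lmFit, eBayes with trend, two-sided) tested each gene with a mean of at least 1 FPKM on log2(FPKM + 1), overexpression minus control, with Benjamini-Hochberg adjustment over all of them at a threshold of 0.05. On this scale the changes of low genes come out smaller than they are. The fit was tested on simulated data. The alternatives were pseudocounts of 0.1 and 5, no filter, a filter at 5 FPKM, 3 other scalings, limma-voom on the recovered reads, a replicate block and leaving out each library. The text names each lncRNA past the threshold, the 10 most abundant, those with a given name, 3 on each side of the bound, their overlapping or nearest protein-coding genes, and 4 gene lists; others are said to be chosen after their values were seen. The lncRNAs, lists and tests were chosen with earlier results of these data known. Of the markers, eye genes summed to 3196 to 3991 FPKM in overexpression libraries and 3111 to 3184 in controls. In the same order, gut genes summed to 9664 to 10239 and 7690 to 9227. Malpighian tubule genes summed to 178 to 192 and 156 to 180, and neuron genes to 106 to 121 and 111 to 117. Female genes summed to 8.16 to 13.1 and 31.9 to 34.0, nearly all from Yp3, which averaged 10.0 and 32.4 FPKM. Yp3 was the 1 tested gene of the 8 on that list, and the others averaged at most 0.271 FPKM. Of 5 RNAs listed for immunity, VINR and CR11538 were not matched under the symbols listed and are not analysed here.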

Additional observations from a re-analysis of the deposited data

How the results depend on the processing

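Counts below are for overexpression against control, beside 8 higher and 9 lower of the 79 lncRNAs, 300 and 773 of all genes, and 12 and 17 of the other lncRNAs. Without a filter 4 of the 79 were higher, and 26 of 1609 other lncRNAs; with a filter at 5 FPKM 3 of 89 other lncRNAs were higher and 6 lower. Rescaled to a common FPKM total, 15 of the 79, 826 genes and 19 other lncRNAs were higher and 484 genes lower. Leaving out 1 library gave 2 to 10 higher and 5 to 8 lower of the 79, 137 to 283 higher and 427 to 629 lower genes, and 7 to 14 higher and 9 to 17 lower other lncRNAs; the lowest count of genes came without overexpression replicate 3. With the replicate number as a block, 2 of the 79 were higher and 8 lower: CR44631, CR42767, CR42850, CR32690, CR43278, CR32835, CR43404 and CR43491 lost the call (adjusted p = 0.0519 to 0.109) and CR43239 gained it (0.0204). Same-numbered libraries had correlations of 0.03, -0.22 and -0.02 between their deviations from the group means. Pairing by number was not seen in these values, and 3 libraries per group cannot exclude it. Of 32 named lncRNAs followed through 15 alternatives, 389 values kept their sign and side of the threshold, 67 lost the call and 13 gained it. The sign changed for CR31781 (0.061 rescaled, 0.078 under quantile normalization, -0.11 to 0.012 without 1 library), noe (-0.053 to 0.14 without 1 library), mimi (-0.010 to 0.066), CR44396 (0.044 rescaled, -0.097 to 0.012 without 1 library) and CR43437 (-0.00031 to 0.25). The cause of these changes was not tested. The depth behind a value ran from 21 reads (CR44546) to 31472 (CR42862); how detection depends on depth or length was not tested.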
